A study of Homo sapiens with 3 samples.

Results

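The cells described here were human pluripotent stem cells that carried transcripts of TBXT (ENSG00000164458), the T-box transcription factor also called Brachyury, after 48 h under CHIR99021 or under BMP4. Each cell was reduced by random draw to 10000 unique molecular identifiers (UMIs, each standing for 1 captured RNA molecule), and a cell was taken when the draw held at least 2 TBXT UMIs and none of MESP1 or SOX17, transcription factors of nascent mesoderm and of endoderm or germ cells. This gave 664 CHIR cells and 760 BMP4 cells, 1424 of the 13933 cells of both libraries deep enough to be drawn and of 23361 cells kept in the series. The members were thus chosen on their drawn TBXT, MESP1 and SOX17 counts, and the drawn levels of these 3 genes describe the choice.

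The cells came from HES3 MIXL1:GFP, an established human embryonic stem cell line with a fluorescent reporter at MIXL1, grown as micropatterned colonies, which are disc-shaped colonies of fixed outline. All colonies had 10 µM of the Rock inhibitor Y-27632 at seeding and 24 h of growth before treatment. The BMP4 colonies then received 50 ng/mL of BMP4, a secreted ligand of the BMP receptors, and the CHIR colonies were treated with CHIR99021 at 6 µM, which blocks GSK3, stabilises beta-catenin and so acts as a WNT agonist. In the third library CHIR99021 was used at 3 µM, combined with Activin A at 100 ng/mL (a ligand acting through the NODAL receptors). Its 689 TBXT-positive cells are given for reference. Each treatment was 1 library from about 10 pooled micropatterns of 1 cell line, and no untreated colonies were analysed here. No test between treatments was therefore possible, and all intervals below are exact 95% intervals that cover counting error only.

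TBXT is switched on in epiblast cells as they enter the primitive streak, the site where cells leave the epiblast to form mesoderm and endoderm. WNT signalling through beta-catenin and its TCF/LEF partners induces it, BMP4 acts upstream by raising WNT and NODAL ligands, and the dose of NODAL-type signal separates anterior streak, the source of endoderm and axial mesoderm, from posterior streak. MIXL1, EOMES, FGF8 and NODAL are expressed with TBXT in the streak, whereas SOX2 and NANOG mark the epiblast that cells leave.

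Promoters of 3 genes are shown, picked because their windows held a searched motif and their groups recur below. MIXL1 and SP5 are streak genes, and SP5 is also a beta-catenin target. CHAC1 is a gene of the stress response that was higher under CHIR. The sequences are the 250 bases before the RefSeq start in GRCh38.p14, on the plus strand of the genome, at chr1:226223414-226223663 for MIXL1, chr2:170715087-170715336 for SP5 and chr15:40953221-40953470 for CHAC1. Capitals mark the TCF/LEF motif CTTTGAT in the MIXL1 and SP5 sequences, and in CHAC1 the reverse complement of the ATF4 composite motif TGATGNAA.
MIXL1: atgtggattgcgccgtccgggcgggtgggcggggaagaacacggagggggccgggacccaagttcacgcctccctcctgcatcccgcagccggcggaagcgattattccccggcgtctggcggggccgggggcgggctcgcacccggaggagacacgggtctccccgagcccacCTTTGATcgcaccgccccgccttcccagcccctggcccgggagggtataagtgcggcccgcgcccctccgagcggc
SP5: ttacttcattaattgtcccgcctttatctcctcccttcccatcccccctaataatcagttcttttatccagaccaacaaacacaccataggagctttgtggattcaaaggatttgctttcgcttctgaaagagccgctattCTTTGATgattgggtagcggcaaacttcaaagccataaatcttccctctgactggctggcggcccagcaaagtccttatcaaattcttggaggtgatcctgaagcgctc
CHAC1: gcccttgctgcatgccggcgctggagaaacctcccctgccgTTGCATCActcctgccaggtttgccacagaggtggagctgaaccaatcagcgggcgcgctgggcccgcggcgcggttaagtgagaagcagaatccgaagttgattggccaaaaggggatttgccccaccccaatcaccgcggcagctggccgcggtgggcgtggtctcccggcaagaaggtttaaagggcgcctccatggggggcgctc

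The TCF/LEF motif began 76 bases before the start of MIXL1 and 109 bases before that of SP5. Searched on both strands, it stood in 794 of 35116 such windows (2.26%), in 2 of the 7 streak genes with a window and in 1 of the 8 WNT feedback genes with one. Neither TBXT window held it, which says only that these letters are not in those 250 bases. The ATF4 motif stood in 1104 windows (3.14%) and in 3 of the 11 stress genes with a window, ASNS, ATF3 and CHAC1. The list counts are by gene and a gene can have more than 1 window, so they are not on the scale of the shares of windows. A match is a description of letters and no evidence of binding.

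The libraries differed in depth. Cells kept had a median of 12623 UMIs under BMP4, 22919.5 under CHIR and 17202 under CHIR+Activin, and 74.9%, 97.3% and 95.2% of them had the 10000 UMIs that the draw needs. The BMP4 matrix holds every droplet, and its cells were called from 3739 UMIs upward, whereas the other matrices hold called cells only. The kept cells of any pair of libraries shared between 8 and 12 barcodes. TBXT-positive cells had a median of 24255 UMIs under CHIR and 14409 under BMP4, so all levels below are from the equal draws unless stated. Free RNA was measurable in the BMP4 library alone, in 1591320 droplets with fewer than 100 UMIs that held 7268274 UMIs together.

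TBXT-positive cells without MESP1 and SOX17 made up 9.63% (8.95 to 10.4) of drawn CHIR cells, 10.8% (10.1 to 11.5) of BMP4 cells and 10.5% (9.80 to 11.3) of CHIR+Activin cells. The exclusion acted unequally behind these close values. Before the exclusion, 3576 BMP4 cells (50.8%) but 670 CHIR cells (9.72%) had at least 2 TBXT UMIs. Of these TBXT-carrying cells, 2666 of 3576 (74.6%) under BMP4 also had a MESP1 UMI, against 6 of 670 (0.896%) under CHIR. SOX17 was found in 417 of the 3576 BMP4 cells (11.7%) and in 0 of the 670 CHIR cells. The exclusion therefore removed most TBXT-carrying cells from the BMP4 library and nearly none from the CHIR library.

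Within the chosen cells TBXT counts were lower under CHIR. The mean was 2.37 drawn UMIs under CHIR, with a median of 2 and a highest value of 7, and 3.14 under BMP4, with a median of 3 and a highest value of 11. The cells just inside the threshold, with exactly 2 TBXT UMIs, were 493 of 664 (74.2%) under CHIR and 327 of 760 (43.0%) under BMP4. Just outside it, with 1 TBXT UMI and no MESP1 or SOX17, stood 1561 CHIR cells and 599 BMP4 cells.

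The UMIs that the draw left aside in the same cells gave TBXT levels that the rule had not read. Levels are in CPM, the UMIs of a gene scaled to a total of 1000000 UMIs in the summed cells. In undrawn UMIs TBXT stood at 90.7 CPM (85.4 to 96.3) in CHIR members and at 211 CPM (198 to 225) in BMP4 members, 2.33-fold higher under BMP4 (2.14 to 2.54). These values were 38.3% and 67.3% of the drawn levels of 237 and 314 CPM. Relative to cells of the same library with no drawn UMI of TBXT, MESP1 or SOX17, undrawn TBXT was 2.50-fold higher in CHIR members (2.33 to 2.69), 4.82-fold higher in BMP4 members (4.26 to 5.46) and 3.44-fold higher in CHIR+Activin members (3.14 to 3.77). In each library the members thus carried more TBXT than the cells without a drawn UMI, with the smallest ratio under CHIR. TBXT stood at 184 CPM in the free RNA of the BMP4 library, and 25.2% of 123 BMP4 amnion-like cells (at least 2 UMIs each of GATA3 and TFAP2A, median depth 16802 UMIs) had a TBXT UMI.

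**Figure D1:**
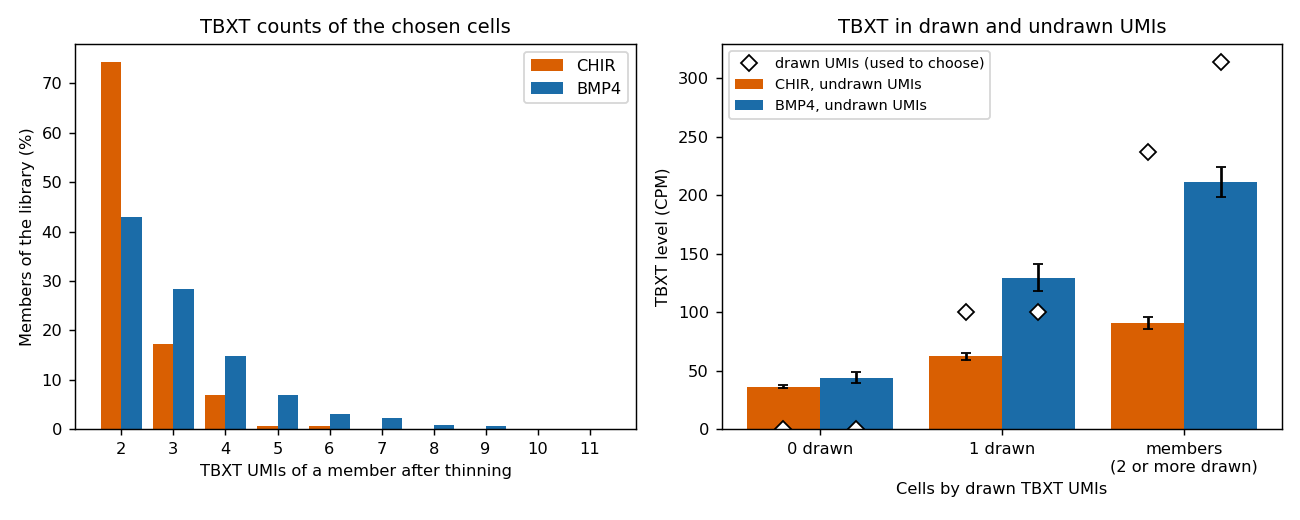
Left, percent of TBXT-positive cells by their number of drawn TBXT UMIs, with 74.2% of CHIR cells and 43.0% of BMP4 cells at 2 UMIs. Right, TBXT level in CPM in undrawn UMIs (bars, with exact 95% counting intervals) and in drawn UMIs (diamonds) for cells with 0, 1 and at least 2 drawn TBXT UMIs and no MESP1 or SOX17, reaching 90.7 CPM in CHIR members and 211 CPM in BMP4 members.

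The 2 excluded genes were not equally absent in the undrawn UMIs. MESP1 had 265 undrawn UMIs (54.7 CPM) in BMP4 members and 14 (1.17 CPM) in CHIR members. SOX17 had 64 undrawn UMIs (13.2 CPM) in BMP4 members and 1 (0.0833 CPM) in CHIR members. Free RNA of the BMP4 library held MESP1 at 169 CPM and SOX17 at 45.5 CPM. Whether those BMP4 UMIs came from the cells or from free RNA was not tested.

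Of 9995 genes with at least 10 CPM on either side, 168 (1.68%) were higher by 2-fold or more in CHIR cells and 170 (1.7%) lower, and the median log2 ratio of CHIR over BMP4 was 0.03. These shares and this median are the reference for each list below. In the same order, 19 and 45 genes differed at least 4-fold. With MESP1 and SOX17 cells kept, which adds mostly BMP4 cells, 335 genes were higher and 316 lower. The summed draws held 6640000 UMIs under CHIR and 7600000 under BMP4, so 3 UMIs, the value set for a side without any, stand for 0.452 and 0.395 CPM.

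Most streak genes lay within 2-fold of each other. Of 13 primitive streak genes, FGF8 and GSC reached 2-fold upward in CHIR cells and LHX1 downward (3 of 13, beside 3.38% of all genes in either direction), with a list median of 0.30. MIXL1, the homeobox gene that carries the reporter of this line, stood at 285 CPM under CHIR (272 to 298), 277 CPM under BMP4 (265 to 289) and 327 CPM under CHIR+Activin. Its log2 ratio of 0.04 changed sign with another random draw (-0.12). MIXL1 was detected in 84.2% of CHIR members, 82.6% of BMP4 members and 19.5% of BMP4 amnion-like cells. The MIXL1 intervals of CHIR and BMP4 cells thus overlapped, although TBXT was lower under CHIR. EOMES, a T-box factor needed for mesoderm and endoderm, had 125 CPM under CHIR and 154 CPM under BMP4, in 61.0% and 65.8% of members. FGF4 stood at 80.3 and 74.1 CPM, and WNT3, the streak-inducing WNT ligand, at 74.8 and 114 CPM. CDH1 and CDH2, the epithelial and mesenchymal cadherins whose balance shifts in the streak, also lay close together, CDH1 at 154 and 159 CPM and CDH2 at 247 and 241 CPM.

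Of the anterior streak and axial genes, FOXA2 was furthest apart. FOXA2 (ENSG00000125798), a forkhead factor of anterior streak, endoderm and notochord, had 88.0 CPM (81.0 to 95.4) under CHIR, 4.74 CPM (3.32 to 6.56) under BMP4 and 72.0 CPM under CHIR+Activin. The CHIR level was 18.6-fold the BMP4 level, the largest ratio upward among genes of at least 50 CPM. FOXA2 was detected in 309 of 664 CHIR members (46.5%), 27 of 760 BMP4 members (3.55%, 2.35 to 5.13) and 1 of 123 amnion-like cells (0.813%, 0.0206 to 4.45). The BMP4 value lay close to its free RNA, 3.99 CPM, and its interval overlapped that of the amnion-like cells, which rests on 1 cell. Of the 27 BMP4 members with FOXA2, 7 had at least 2 UMIs of it. GSC was found in 25.9% of the 27 and 9.41% of the other BMP4 members, and EOMES in 85.2% and 65.1%. GATA6 went the other way, at 29.6% and 36.2%. Whether the FOXA2 UMIs of BMP4 members came from the cells or from free RNA was not tested. GSC, an organiser homeobox gene, had 28.5 CPM under CHIR and 11.6 under BMP4, but the log2 ratio of 1.30 shrank to 0.24 when MESP1 and SOX17 cells were kept. HHEX, an anterior endoderm homeobox gene, was below the minimum for comparison, at 7.83 CPM under CHIR and 1.05 under BMP4. CER1, a secreted antagonist of NODAL, BMP and WNT, had 127 and 104 CPM, and its log2 ratio of 0.29 turned to -0.26 when cells were drawn to 8000 UMIs. CER1 was nevertheless found in 48.2% of CHIR members and 25.7% of BMP4 members, so fewer BMP4 cells held a similar summed level.

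LHX1, a LIM homeobox gene of anterior streak, went the other way, with 15.1 CPM under CHIR and 40.7 under BMP4, and its log2 ratio of -1.43 moved to -0.88 when MESP1 and SOX17 had to be at 0 in all deposited UMIs. GATA6, a zinc finger factor of endoderm and mesoderm, had 45.6 CPM under CHIR, 85.8 under BMP4 and 118 under CHIR+Activin. In free RNA of the BMP4 library LHX1 stood at 71.4 CPM and GATA6 at 188 CPM, above the BMP4 members in both. The part of free RNA in these levels was not tested. PRDM1 stood at 3.16 CPM under CHIR and 13.0 under BMP4. Of 9 genes compared on the list of definitive endoderm or anterior streak, FOXA2 and GSC reached 2-fold upward and LHX1 and PRDM1 downward, with a median of -0.02.

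Among NODAL signalling genes the feedback inhibitors differed most. Of 11 compared, 2 reached 2-fold upward in CHIR cells and 0 downward, with a median of 0.35. LEFTY1, a feedback inhibitor of NODAL, had 126 CPM under CHIR (118 to 135), 22.2 CPM under BMP4 (19.0 to 25.9) and 147 CPM under CHIR+Activin, 5.66-fold apart. It was detected in 59.5% of CHIR members, 13.9% of BMP4 members and 10.6% of BMP4 amnion-like cells. LEFTY2, its neighbour and paralog, had 71.1 and 30.5 CPM, and reads of such close copies can be assigned to either. The ligand NODAL stood at 209 and 139 CPM, its co-receptor TDGF1 at 205 and 161 CPM and GDF3, its partner ligand, at 52.4 and 32.2 CPM.

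FGF8, a ligand that drives cell movement out of the streak, was the FGF ligand that differed. It had 88.1 CPM under CHIR (81.1 to 95.5), 16.8 CPM under BMP4 and 78.7 CPM under CHIR+Activin, a 5.23-fold ratio of CHIR over BMP4. FGF8 was detected in 56.3% of CHIR members, 14.6% of BMP4 members and 2.44% of amnion-like cells. Of 5 FGF ligands compared, it alone passed 2-fold, while FGF17 stood at 89.6 CPM under CHIR and 112 under BMP4. Of 10 FGF feedback genes, DUSP6, an ERK phosphatase, was alone at least 2-fold higher, at 26.2 and 9.74 CPM. The share over all genes compared was 1.68%.

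Of 16 epiblast genes compared, SOX2 reached 2-fold upward in CHIR cells and 0 reached it downward, with a median of 0.30. Over all genes compared 1.68% reached it upward and 1.7% downward. SOX2, the HMG-box factor of epiblast and neural fate, had 45.8 CPM under CHIR (40.8 to 51.2), 15.4 CPM under BMP4 (12.7 to 18.4) and 43.5 CPM under CHIR+Activin. SOX2 was detected in 33.1% of CHIR members, 11.6% of BMP4 members and 4.07% of amnion-like cells. NANOG stood at 65.5 and 36.4 CPM and USP44 at 79.1 and 41.2 CPM, each short of 2-fold. POU5F1, the core pluripotency factor, was level at 991 CPM under CHIR and 986 under BMP4. Within the CHIR members SOX2 was found in 23.6% of 309 cells with FOXA2 and 41.4% of 355 cells without, and in 30.6% of 559 cells with MIXL1 and 46.7% of 105 cells without. Within the BMP4 members SOX2 was found in 18.5% of 27 cells with FOXA2 and 11.3% of 733 cells without, and in 11.6% of 628 cells with MIXL1 and 11.4% of 132 cells without. CER1 was found in 58.3% of CHIR members with FOXA2 and 39.4% of those without. The same shares were 48.1% and 24.8% under BMP4 and 65.1% and 60.3% under CHIR+Activin. These shares compare cells of 1 library and were not tested.

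Of 8 genes compared on the caudal epiblast list, 5 were lower by 2-fold or more in CHIR cells and 0 higher, with a median of -1.22, beside 0.03 over all genes. CDX2, a caudal homeobox gene, had 3 UMIs (0.452 CPM) in CHIR members, 102 UMIs (13.4 CPM) in BMP4 members and 9 UMIs (1.31 CPM) in CHIR+Activin members. That is a log2 ratio of -4.89 (-7.19 to -3.30). CDX2 was detected in 11.3% of BMP4 members, and in 22.8% of amnion-like cells, and its free-RNA level was 12.2 CPM. EVX1, a homeobox gene of the posterior streak, had 5.42 CPM under CHIR and 24.3 under BMP4. CDX1 had 10.1 and 23.2 CPM, a log2 ratio of -1.20 that came to -0.71 with another draw. CYP26A1, which degrades retinoic acid, had 31.5 and 74.3 CPM. WNT8A, a posterior WNT ligand, had 2.11 and 15.8 CPM. The other 3 stayed within 2-fold, NKX1-2 at 30.0 and 26.6 CPM, FGF17 at a log2 ratio of -0.33 and WNT5B at -0.42. In free RNA of the BMP4 library EVX1 stood at 29.4 CPM, CYP26A1 at 100 CPM and WNT8A at 23.4 CPM, each above the BMP4 members. CDX1 stood at 12.5 CPM there, below the members, as did CDX2. The part of free RNA in these differences was not tested. HOX genes were not compared in either set, since none of the 27 listed reached 10 CPM, and their sum was 0.904 CPM under CHIR and 3.55 CPM under BMP4.

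The BMP response list had the lowest median of the lists with 5 or more genes compared. Of 8 compared, 6 were lower by 2-fold or more in CHIR cells and 0 higher, with a median of -1.77. ID1 (ENSG00000125968), a direct SMAD target that blocks bHLH factors, had 105 CPM under CHIR (96.9 to 113), 915 CPM under BMP4 (893 to 936) and 165 CPM under CHIR+Activin. ID1 was detected in 57.4% of CHIR members and 97.8% of BMP4 members. ID3 had 232 and 654 CPM, ID2 47.9 and 146 CPM, and ID4 1.36 and 24.2 CPM. MSX2, a homeobox target of BMP, had 6 UMIs (0.904 CPM) in CHIR members and 308 (40.5 CPM) in BMP4 members. It was detected in 29.7% of BMP4 members and 84.6% of amnion-like cells. Its free-RNA level in the BMP4 library was 47.7 CPM, above the members, whereas that of ID1 was 723 CPM, below them. The part of free RNA in these levels was not tested. BAMBI, a decoy BMP receptor, had 13.4 and 51.1 CPM, whereas the inhibitory SMADs SMAD6 (15.5 and 23.4 CPM) and SMAD7 (13.7 and 25.9 CPM) stayed within 2-fold. The transcript of BMP4 itself, apart from the added protein, stood at 2.41 CPM under CHIR and 17.1 under BMP4.

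WNT feedback genes mostly lay within 2-fold. Of 11 beta-catenin targets compared, 0 reached 2-fold upward in CHIR cells and 1 downward, with a median of 0.12. SP5, a zinc finger target, came closest to 2-fold upward, with 174 CPM under CHIR and 93.3 under BMP4. AXIN2, the scaffold of the destruction complex, had 35.4 CPM under CHIR at a log2 ratio of 0.50, and DKK1, a secreted WNT inhibitor, had 56.9 and 37.6 CPM. LEF1, a nuclear partner of beta-catenin, had 18.8 and 35.7 CPM. NOTUM, which inactivates WNT proteins, was the gene at least 2-fold lower, at 2.41 and 10.1 CPM. WNT5A, a ligand of the non-canonical branch, had 14 UMIs (2.11 CPM) in CHIR members and 192 UMIs (25.3 CPM) in BMP4 members. Its free-RNA level in the BMP4 library was higher, 86.5 CPM, and the part of free RNA was not tested. TCF7L1, a TCF factor known as a repressor in pluripotent cells, was 3.67-fold higher in CHIR members, with 168 CPM under CHIR (158 to 178), 45.7 CPM under BMP4 (41.0 to 50.7) and 165 CPM under CHIR+Activin. It was detected in 76.5% of CHIR members, 31.4% of BMP4 members and 50.4% of amnion-like cells.

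**Figure D2:**
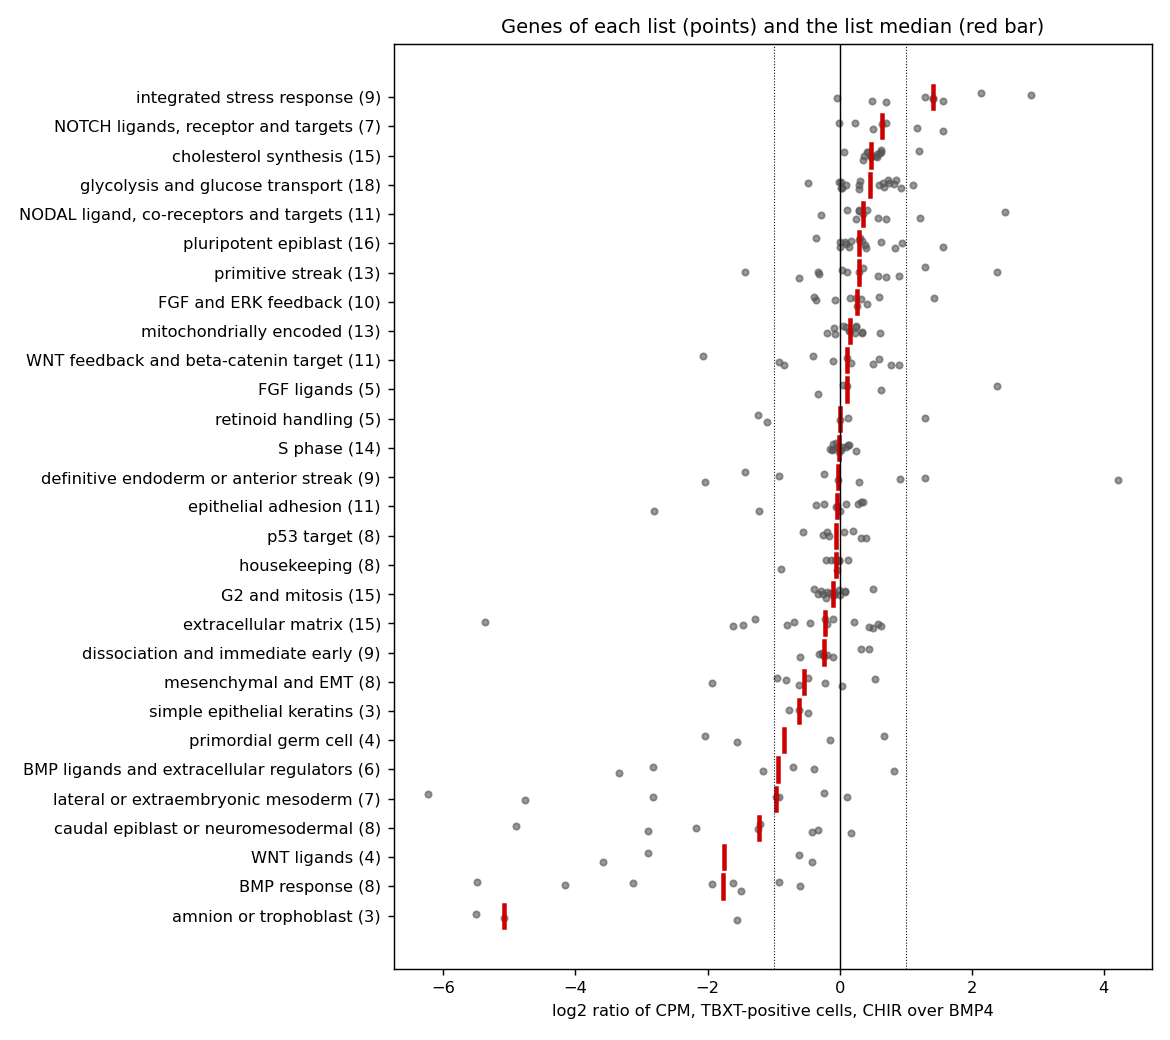
Log2 ratio of CPM, CHIR over BMP4, in TBXT-positive cells for each gene compared (points) of each list with at least 3 such genes (number in brackets), with the list median as a red bar and dotted lines at 2-fold. The stress list has the highest median (1.42) and the amnion or trophoblast list the lowest (-5.08, with GATA3 set at 3 UMIs under CHIR).

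Integrated stress response genes were the list with the most genes higher under CHIR. Of 9 compared, 6 reached 2-fold upward and 0 downward, with a median of 1.42. DDIT4, an inhibitor of mTORC1 induced by stress, had 209 CPM under CHIR (198 to 220.2), 27.9 CPM under BMP4 (24.3 to 31.9) and 107 CPM under CHIR+Activin, and was detected in 63.1%, 21.7% and 50.7% of members. CHAC1, a glutathione-degrading enzyme whose promoter is printed above, had 25.6 and 5.79 CPM. SESN2, a leucine sensor, had 42.5 and 15.9 CPM, and SLC7A11, a cystine importer, 111 and 37.5 CPM. ATF3 had 22.0 and 8.95 CPM, a log2 ratio of 1.30 that was 0.999 among cells with at least 3 TBXT UMIs. ATF4 itself, which is mainly controlled in translation, had 158 and 112 CPM. PSAT1 (347 and 214 CPM) and PHGDH (139 and 142 CPM) stayed within 2-fold.

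Metabolic lists had smaller positive medians. Of 18 glycolysis and glucose transport genes, SLC16A3, a lactate exporter, was alone at least 2-fold higher, with a list median of 0.45. Of 15 cholesterol synthesis genes INSIG1 alone was, with a median of 0.47. Over all genes compared 1.68% were higher, so 1 gene in lists this short is little beyond that share. The log2 ratio of INSIG1, 1.19, missed 2-fold in 2 of 13 settings, with 0.94 as its lowest value. BNIP3, a mitophagy receptor induced by low oxygen, had 548 CPM under CHIR and 186 under BMP4. Of 13 mitochondrially encoded genes, 15 of the mitosis list, 14 of the S phase list, 9 of the dissociation and immediate early list and 8 p53 targets, 0 differed 2-fold. Their medians lay between -0.24 and 0.15. Over all genes compared 3.38% differed 2-fold, so a count of 0 in lists this short is near that share. Whether cell dissociation or depth, 24255 against 14409 UMIs, had a part in the stress genes was not tested.

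Of 7 NOTCH genes, 2 reached 2-fold upward in CHIR cells and 0 downward. HES6, a bHLH factor that counters HES1, had 62.5 and 21.1 CPM, and NRARP, a NOTCH feedback gene, 10.4 and 4.61 CPM, with NRARP short of 2-fold (0.90) among cells with at least 1 TBXT UMI.

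Matrix genes were lower under CHIR where they differed. Of 15 compared, 4 were lower by 2-fold or more and 0 higher, with a median of -0.22. HAPLN1, a link protein of hyaluronan, had 8 UMIs (1.20 CPM) in CHIR members and 378 (49.7 CPM) in BMP4 members. HAS2, which synthesises hyaluronan, had 72.3 and 176 CPM, and COL5A2, a fibrillar collagen, 30.6 and 93.3 CPM. FN1, the fibronectin gene and the member of the mesenchymal list at least 2-fold lower, had 35.8 and 137 CPM.

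Among genes of at least 50 CPM on either side, HPGD, PCAT14 and NTS had the lowest ratios. HPGD (ENSG00000164120), the enzyme that inactivates prostaglandins, had 8 UMIs (1.20 CPM, 0.520 to 2.37) in CHIR members, 917 UMIs (121 CPM, 113 to 129) in BMP4 members and 34 UMIs (4.93 CPM) in CHIR+Activin members. It was detected in 1.20% of CHIR members, 34.1% of BMP4 members and 96.7% of amnion-like cells. NTS, the neurotensin precursor, had 43.2 CPM (38.4 to 48.5) under CHIR, 929 CPM (907 to 951) under BMP4 and 89.0 CPM under CHIR+Activin, and was detected in 25.3%, 93.4% and 42.2% of members. The long noncoding RNA PCAT14 had 3.31 and 147 CPM, the dystrophin gene DMD 45.5 and 515 CPM, and the claudin gene CLDN10 31.3 and 219.6 CPM. Free RNA of the BMP4 library held HPGD at 147 CPM and NTS at 1032 CPM, above the BMP4 members in both. It also held PCAT14 at 208 CPM and CLDN10 at 260 CPM, above the members, and DMD at 402 CPM, below them. Its part in these differences was not tested.

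Markers of amnion and extraembryonic mesoderm were present at low level in the BMP4 members. The 11 amnion or trophoblast genes summed to 72.0 CPM in BMP4 members and 14.3 CPM in CHIR members, beside 189 CPM in BMP4 cells without drawn TBXT, MESP1 or SOX17 and 112 CPM in free RNA. All 3 genes compared were at least 2-fold lower under CHIR, and 5 of the 11 had 0 UMIs there. GATA3 had 0 UMIs in CHIR members and 116 UMIs (15.3 CPM) in BMP4 members, so it was at least 33.8-fold lower against 3 UMIs. It was found in 0 of 664 CHIR members, which allows up to 0.452% (3 cells of 664; the exact interval ends at 0.554%), and in 92 of 760 BMP4 members (12.1%). TFAP2A had 3 UMIs under CHIR and 156 (20.5 CPM) under BMP4, a log2 ratio of -5.51 (-7.80 to -3.93). HAND1, a bHLH factor of lateral and extraembryonic mesoderm, had 0 and 93 UMIs (12.2 CPM), at least 27.1-fold lower under CHIR. The BMP4 member levels of GATA3, TFAP2A and HAND1 were 72.5%, 79.4% and 11.9% of their free-RNA levels. Leaving out the members with any of these 3 genes kept 661 CHIR and 537 BMP4 cells, and the BMP response median then was -1.43. Doublet scoring placed 41 CHIR and 43 BMP4 members among the highest-scoring 6% of their libraries. That is 6.17% of CHIR members, beside 5.91% of all drawn CHIR cells. For BMP4 it is 5.66% of members, beside 7.60% of all drawn cells.

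**Figure D3:**
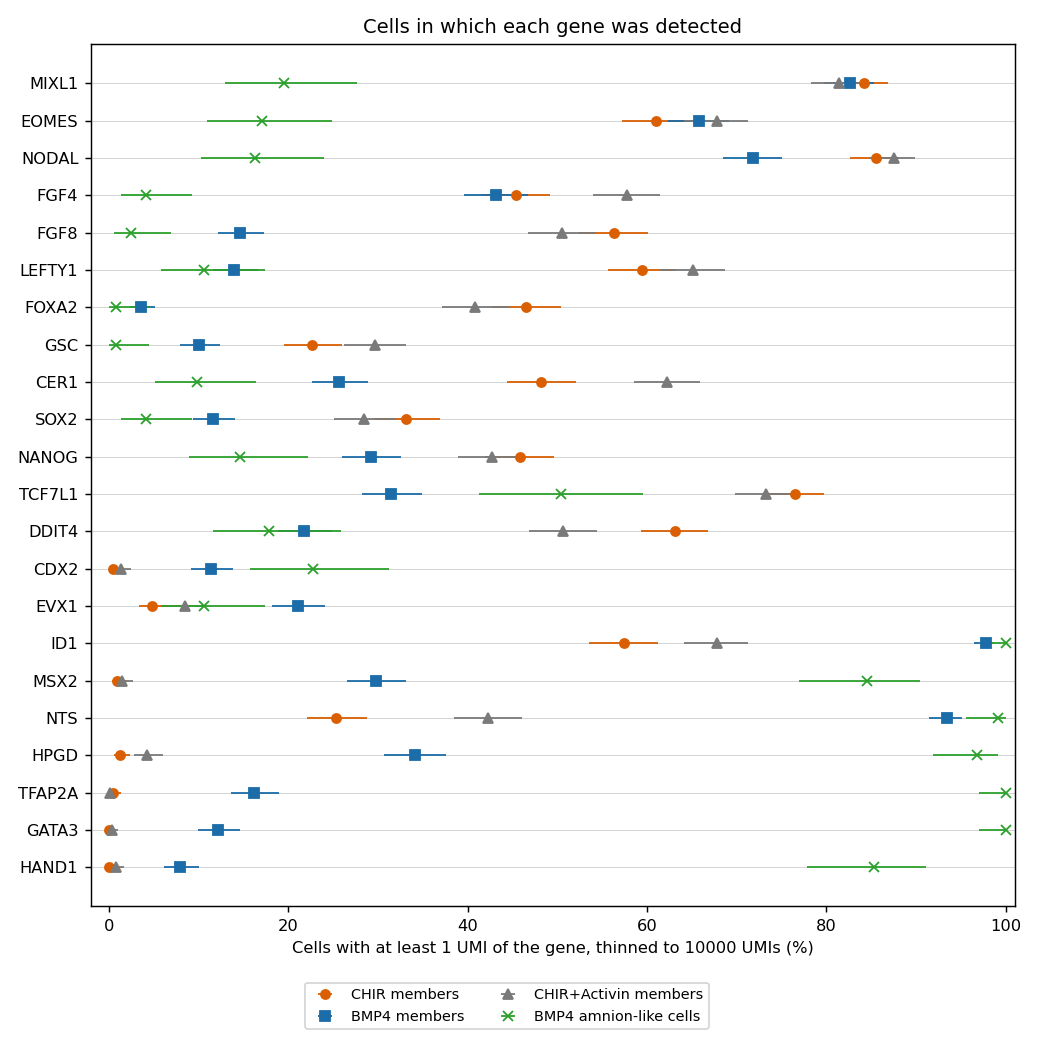
Percent of TBXT-positive cells with at least 1 UMI of a gene after drawing 10000 UMIs, in CHIR, BMP4 and CHIR+Activin members and in 123 BMP4 amnion-like cells, with exact 95% intervals. MIXL1 lies between 81.4% and 84.2% in the 3 member sets, whereas FOXA2 reaches 46.5% under CHIR and 3.55% under BMP4. GATA3 and TFAP2A are at 100% in the amnion-like cells because these were chosen on them.

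Cells of the same libraries without a drawn UMI of TBXT, MESP1 or SOX17 (4612 CHIR, 1189 BMP4) were compared in the same way. They are called cells without TBXT below, but held 36.2 CPM of undrawn TBXT under CHIR and 43.8 under BMP4. They made up 66.9% of drawn CHIR cells and 16.9% of drawn BMP4 cells. In them 103 of 10092 genes (1.02%) reached 2-fold upward in CHIR cells and 230 (2.28%) downward. Of the 168 genes higher in TBXT-positive cells, 66 were also higher there, 39.3% of the member list and 64.1% of the other. Of the 170 lower, 89 were also lower, 52.4% and 38.7% of the lists. FOXA2 (3.36 in those cells), DDIT4 (2.09), FGF8 (2.67), ID1 (-2.90) and NTS (-3.96) had log2 ratios of the same direction in cells without TBXT. The stress list summed to 1294 CPM under CHIR and 691 under BMP4 in cells without TBXT and to 1092 and 579 CPM in members. The BMP response list summed to 456 and 1898 CPM without TBXT and to 431 and 1891 CPM in members. The sums of both lists thus differed by like amounts with and without TBXT, but such sums weigh the highest genes most. Single genes could depart from them: DDIT4 had a log2 ratio of 2.90 in members against 2.09 in cells without TBXT, and ID1 -3.13 against -2.90.

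LEFTY1 and TCF7L1 had larger ratios in the TBXT-positive cells than in the cells without TBXT. The log2 ratio of LEFTY1 was 2.50 in members and 0.59 in cells without TBXT, and that of TCF7L1 was 1.88 and 0.15. Both moved on the BMP4 side: LEFTY1 stood at 82.8 CPM in BMP4 cells without TBXT and 22.2 CPM in BMP4 members, against 125 and 126 CPM under CHIR, and TCF7L1 at 156 and 45.7 CPM against 172 and 168 CPM. In the other direction, NKAIN2, a membrane protein that interacts with the sodium pump, had a log2 ratio of -3.33 in members and -1.45 in cells without TBXT. PDE4D, a cyclic AMP phosphodiesterase, had -2.66 and -0.81, and GAD1, the enzyme that makes GABA, -0.23 and 1.07. KIF26B, a kinesin, had 0.51 in members and -1.82 in cells without TBXT. SLC8A1 and ARHGAP24 had -2.82 and -3.54 in cells without TBXT, and in members both were under 10 CPM on each side and so were not compared. The cells without TBXT held some undrawn TBXT and differed in make-up between the libraries, so these ratios do not place any gap in TBXT-carrying cells.

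**Figure D4:**
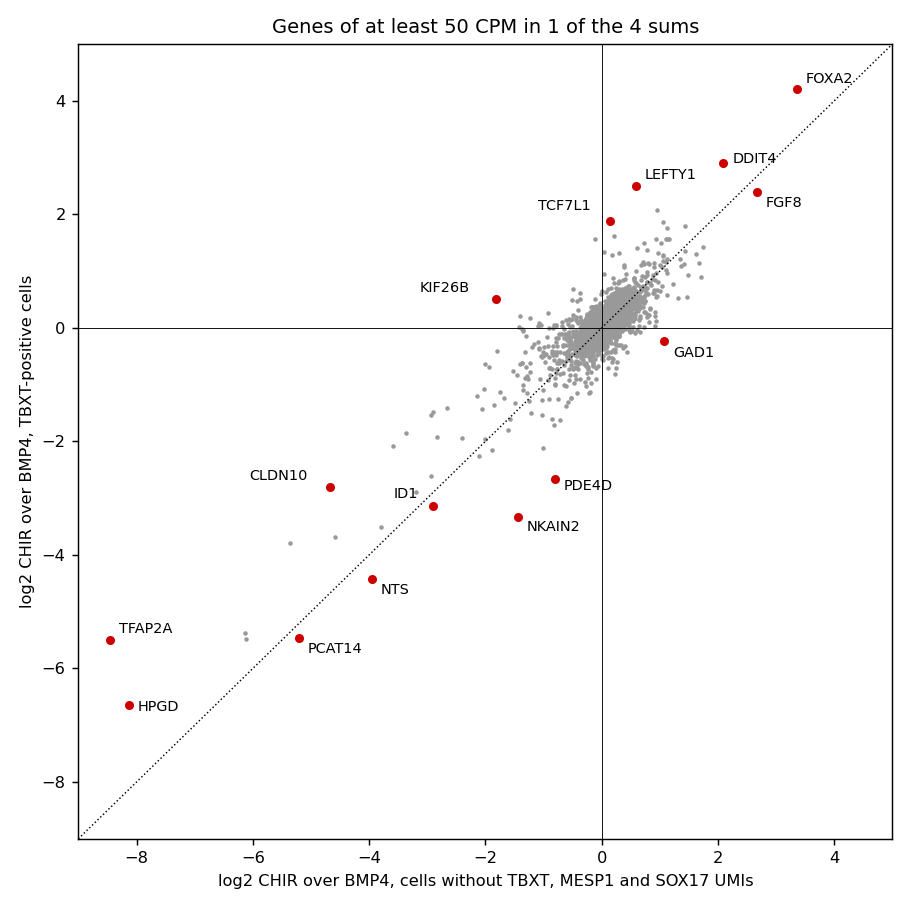
Log2 ratio of CHIR over BMP4 in TBXT-positive cells (vertical axis) against that in cells without drawn TBXT, MESP1 and SOX17 UMIs (horizontal axis) for 4330 genes of at least 50 CPM in 1 of the 4 sums, with equality dotted. LEFTY1 (2.50 against 0.59) and TCF7L1 (1.88 against 0.15) lie above the line and NKAIN2 (-3.33 against -1.45) below it.

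The genes furthest above the cells without drawn TBXT in the members were partly shared between treatments. Genes were ranked by the log2 ratio of members over cells without drawn TBXT, within a library, among genes of at least 50 CPM in members. TBXT itself, in undrawn UMIs, was 2.50-fold higher in CHIR members and 4.82-fold higher in BMP4 members, so a high rank is not closeness to TBXT. Under CHIR the genes with the highest ratios included DKK1 (2.72), FGF17 (2.28), CER1 (1.55), the guidance ligand NTN1 (1.39), FGF4 (1.36), the WNT5A receptor ROR2 (1.13) and MIXL1 (1.09). Under BMP4 they included GATA6 (2.84), FGF17 (2.70), CYP26A1 (2.34), FGF4 (2.18), NKAIN2 (2.07), CER1 (1.99) and MIXL1 (1.96). FGF17, FGF4, CER1 and MIXL1 were on both lists of 8 genes. GATA6 and CYP26A1 also had high ratios under CHIR, 2.50 and 1.62, but missed the CHIR list at 45.6 and 31.5 CPM in members. Likewise DKK1 had 2.92 under BMP4 but missed the BMP4 list at 37.6 CPM. The BMP4 cells without TBXT also held more amnion markers, as given above.

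Levels were also read by the drawn TBXT count of a cell. Equal drawn counts did not mean equal TBXT, since cells with exactly 2 drawn UMIs held 86.8 CPM of undrawn TBXT under CHIR and 170.0 under BMP4, so the classes are not matched between treatments. MIXL1 stood at 133, 201, 275 and 395 CPM in CHIR cells with 0, 1, 2 to 3 and 4 to 7 drawn TBXT UMIs, and at 70.9, 210.4, 268 and 297 CPM in BMP4 cells. The 4 classes held 4612, 1561, 608 and 56 CHIR cells and 1189, 599, 542 and 205 BMP4 cells, and a further 13 BMP4 cells had 8 or more. MIXL1 thus was higher in each class with more TBXT under both treatments. CDH2 did likewise, from 126 to 357 CPM under CHIR and from 81.2 to 276 CPM under BMP4. SOX2 was lower in each class with more TBXT, from 75.5 to 30.4 CPM under CHIR and from 82.0 to 7.80 CPM under BMP4. SOX2 thus had similar levels under both treatments in cells without a drawn TBXT UMI, and was lower under BMP4 in each class with drawn TBXT. The class without drawn TBXT was not free of it and differed in make-up between the libraries, so these levels do not place the gap in TBXT-carrying cells.

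FOXA2, TCF7L1 and LEFTY1 varied with the TBXT count mainly under 1 treatment. FOXA2 stood at 48.2, 62.4, 83.9 and 132 CPM over the 4 CHIR classes and between 3.90 and 5.51 CPM over the BMP4 classes. TCF7L1 stood at 156, 84.3, 46.9 and 44.4 CPM over the BMP4 classes and at 172, 163, 172 and 125 CPM over the CHIR classes. LEFTY1 was lower in each BMP4 class with more TBXT, at 82.8, 36.7, 26.0 and 13.7 CPM, and lay between 125 and 134 CPM under CHIR. ID1 lay between 845 and 974 CPM in all 4 BMP4 classes and between 104 and 131 CPM in the CHIR classes, and these ranges did not approach each other at any TBXT count. DDIT4 was lower with more TBXT in both, at 281 to 168 CPM under CHIR and 65.8 to 22.0 CPM under BMP4. When BMP4 members were weighted to the drawn TBXT counts of CHIR members, which leaves that gap in undrawn TBXT, 165 genes were higher by 2-fold or more under CHIR and 156 lower.

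**Figure D5:**
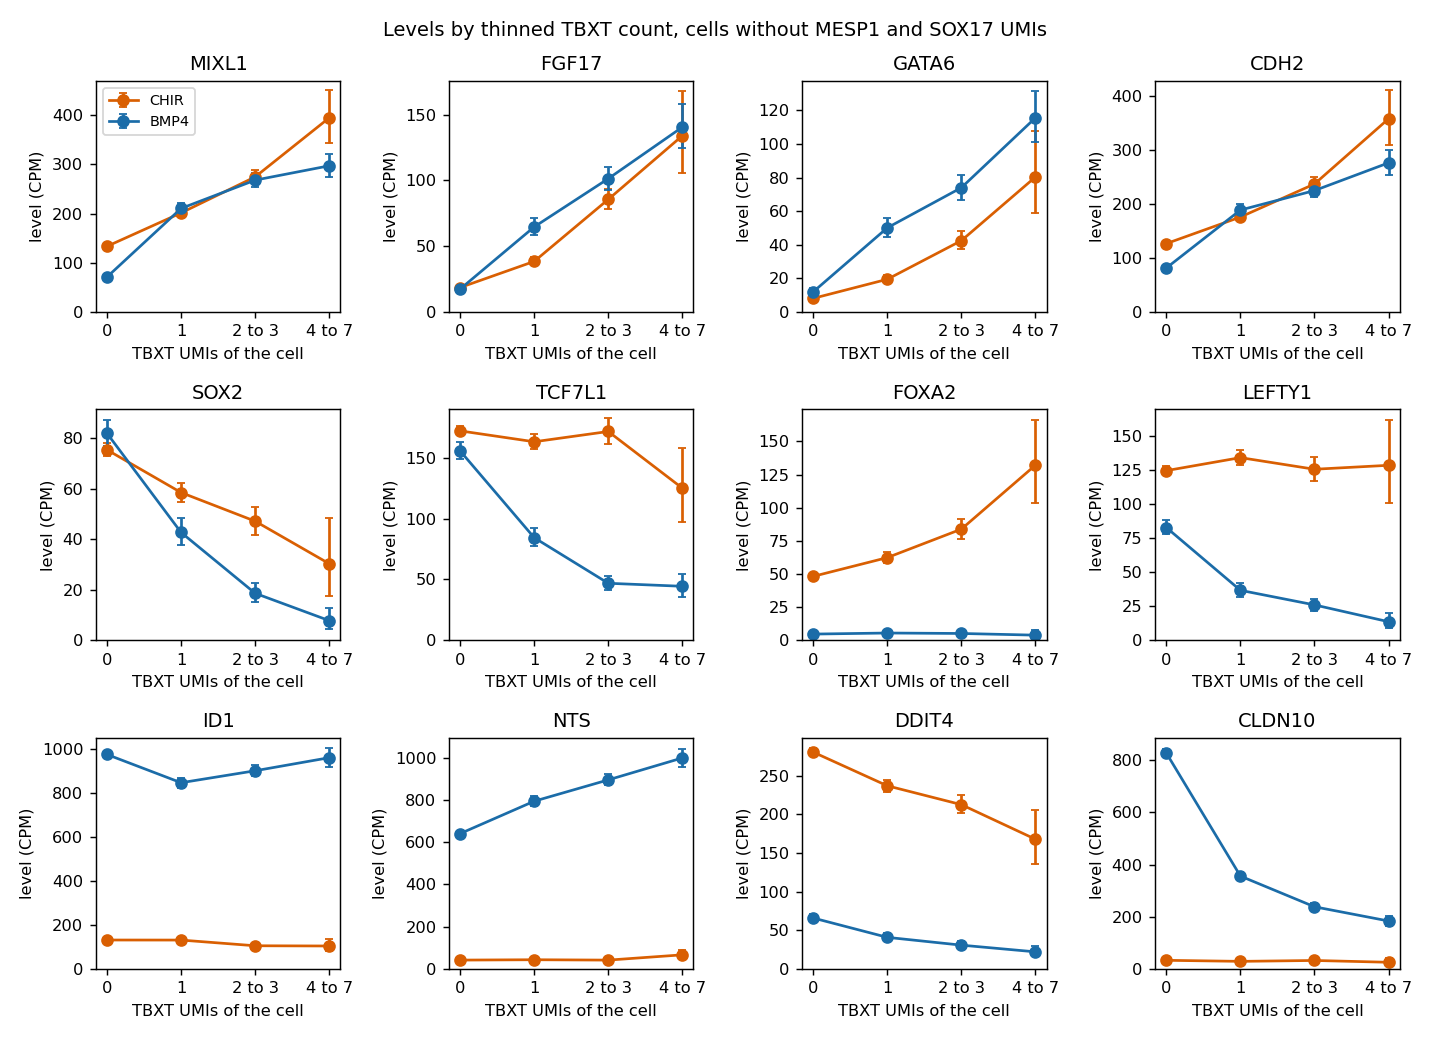
Level in CPM of 12 genes by the drawn TBXT UMIs of a cell (0, 1, 2 to 3, 4 to 7) in CHIR (orange) and BMP4 (blue) cells without drawn MESP1 and SOX17 UMIs, with exact 95% counting intervals. MIXL1 reaches 395 CPM under CHIR and 297 CPM under BMP4 in the highest class, FOXA2 is higher with TBXT under CHIR alone, and ID1 stays apart in every class.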

How the data were processed

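The authors deposited 1 matrix of UMI counts a library, not normalized. Its header names Cell Ranger 8.0.1 (per the file headers). Seurat is named in the submitters' processing notes. Genome build: not given in the sources used here. The BMP4 matrix holds all 1935344 droplets, and its cells needed 3739 UMIs, which is 10% of the 99th percentile UMI count among the 10000 largest barcodes. Barcodes needed at least 2000 genes and at most 15% mitochondrial UMIs. Kept cells held 137174566 UMIs (BMP4), 185215378 (CHIR) and 130592423 (CHIR+Activin).

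Cells were drawn without replacement to 10000 UMIs (seed 1), and shallower cells were left out. Drawn UMIs of members were summed, scaled to CPM and compared as log2 ratios with exact conditional binomial intervals (levels: exact Poisson; shares: Clopper-Pearson; 95%). Genes needed 10 CPM on either side, and a side at 0 was set at 3 UMIs. Counting error is all that these intervals cover. No test was made, as each treatment had 1 library. Doublets were not removed. A Scrublet-type score (2 simulated doublets a cell) marked 8, 0 and 4 cells over 0.5 and so did not work as a caller, and leaving out the top 6% was an alternative. Amnion-like cells had at least 2 UMIs each of GATA3 and TFAP2A.

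The members and the 33 gene lists were chosen with earlier results of these data known. Named genes were the 12 furthest apart each way among genes of at least 50 CPM, listed genes and the 5 each way whose ratio differed most from cells without TBXT. The 8 genes of each library with the highest ratio of members over cells without TBXT were also named. Some are given as counts only. The calculations were tested on simulated data. Alternatives were another draw, 8000 UMIs, other TBXT and CPM minimums, no exclusion, a 10% mitochondrial limit, all UMIs, TMM factors and matched TBXT counts. Python 3.11.15, numpy 2.4.6, scipy 1.17.1, pandas 2.3.3, scanpy 1.11.5 and, for TMM factors, edgeR 4.0.16 in R 4.3.3 were used. Promoter sequences are from RefSeq (GRCh38.p14).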

Additional observations from a re-analysis of the deposited data

How the results depend on the processing

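The share of TBXT-positive cells depended on its definition. Under CHIR it was 32.3% with at least 1 TBXT UMI, 2.48% with at least 3 and 6.41% when cells were drawn to 8000 UMIs. Under BMP4 it was 19.3% with at least 1 TBXT UMI, 6.15% with at least 3, 50.8% without the MESP1 and SOX17 exclusion, 8.37% with both genes at 0 in all deposited UMIs and 7.63% without cells holding a GATA3, TFAP2A or HAND1 UMI, the last 2 settings being chosen after seeing the data. Genes at least 2-fold higher and lower under CHIR numbered 335 and 316 without the exclusion, 42 and 49 at a minimum of 50 CPM (4103 genes compared) and 1477 and 1330 with no minimum (21037 compared). In the other settings they numbered 139 to 219 and 144 to 238. With another draw, 123 of the 168 higher and 141 of the 170 lower genes were called again. Of 72 listed or named genes that differed 2-fold, 59 did so in each of up to 14 settings in which they were compared and 0 changed direction. The settings with a minimum of 50 CPM and with no minimum leave each ratio as it was, so no call could be lost or turned there. The TMM factors, 1.01 for CHIR and 0.987 for BMP4, shift all ratios alike. Many of these genes were also named for their large ratios in the same data. ENSG00000289084 missed 2-fold in 9 settings, and BMP7, CDX1 and CLDN4 in 4 each. No paired analysis was possible because each treatment had 1 library. With 1 library a treatment and 1 cell line, differences between treatments cannot be told apart from differences between libraries. Genes under 10 CPM on both sides were left out of the main comparison by the chosen minimum.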

Other observations

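Several genes outside the lists differed between or within the TBXT-positive cells. GAL, the galanin precursor, had 2950.5 CPM in CHIR members and 4251 CPM in BMP4 members, against 2005 and 1779 CPM in cells without TBXT. ACOXL, a gene related to acyl-CoA oxidases, had 50.8 CPM under CHIR and 12.1 under BMP4, and ADAMTS20, a secreted protease, 60.1 and 16.4 CPM. STC2, the stanniocalcin gene induced by stress of the endoplasmic reticulum, had 56.9 and 19.2 CPM. The antisense transcript VLDLR-AS1 had 61.7 and 17.9 CPM and its partner VLDLR, a lipoprotein receptor, 22.1 and 8.29 CPM. Reads of this antisense pair cannot be told apart where counting ignores strand, and no source names the strand setting.

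SLIT2, a guidance ligand, had 72.0 CPM in CHIR members and 127 CPM in BMP4 members, against 64.9 and 55.5 CPM in cells without TBXT. AK4, a mitochondrial adenylate kinase, had 211 CPM in CHIR members and 85.1 CPM in BMP4 members, against 237 and 194 CPM in cells without TBXT. Simple keratins lay within 2-fold, with KRT8 at 254 CPM under CHIR and 389 under BMP4.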
